A study of Mus musculus with 24 samples.

Results

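Knockdown of Prmt1 was examined in mouse embryoid bodies on day 4 of differentiation, by setting the 3 arrays titled siPRMT1 day4 against the 3 titled siSCR day4. These 6 arrays are part of a series of 24, and the comparison covers 19938 genes, each read from its brightest probe set with 1 gene symbol. Both lines derive from D3, an established mouse embryonic stem (ES) cell line. The siPRMT1 line carries a knockdown of Prmt1, and the siSCR line carries a scrambled sequence in its place. The sources used here do not say whether either line is 1 clone or a mixed population, so a difference between the lines can also hold what separates 2 populations of cells. Per the labels, both lines were passaged on gelatin to remove feeder cells, and embryoid bodies were made by letting the cells aggregate in bacteriological dishes in medium without LIF, the cytokine that keeps mouse ES cells undifferentiated. The day 4 groups are labelled apart from the groups given DMSO or all-trans retinoic acid (ATRA) for 12 h. The 3 siPRMT1 and 3 siSCR arrays of undifferentiated cells were used mainly to compare the stages. The question was whether the difference between the lines at day 4 differed from that before aggregation. These arrays also served in a check of marker genes and, with the rest of the 24, in the model that estimated the spread.

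PRMT1 places most of the asymmetric dimethylarginine found in mammalian cells, on histone H4 and on many RNA-binding and signalling proteins. Embryoid bodies copy some of the first steps of the embryo after implantation: an outer layer turns into extraembryonic (visceral and parietal) endoderm, and the cells inside pass from the naive pluripotent state to that of the epiblast. Visceral endoderm is a polarised epithelium that takes up and digests maternal proteins, secretes lipoproteins and carriers, and, in its anterior part, releases antagonists of Nodal and Wnt.

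RNA was measured on a whole-transcript array, and the values are log2 intensities. Within the 2 day 4 groups, replicate arrays correlated at 0.9974 to 0.9986 over all genes, while arrays of different lines correlated at 0.9924 to 0.9948. The labels call the arrays biological replicates without saying what was repeated, so the p-values measure only the spread between replicate arrays. The model took that spread from within all groups of the series, DMSO and ATRA included, and not from the day 4 arrays alone. Over the whole series the 6 siSCR arrays of the DMSO and ATRA groups stood apart from the other 18 on the first principal component, which held 52.2% of the variance; the day 4 arrays lay with the rest. Markers of cell types were used to check the labels, and not all of them moved alike. In siSCR cells, Fgf5, Otx2, Ttr and Cubn were above their levels in undifferentiated cells by 1.29, 2.93, 3.19 and 2.35 on the log2 scale. Dnmt3b rose by only 0.21, and the parietal endoderm marker Plat fell (-0.82). Pou3f1 (0.20), Afp (0.33) and the streak marker Mixl1 (-0.16) did not pass an adjusted p of 0.05. Another streak marker, Eomes, passed it with a rise of 0.93. Of the markers of undifferentiated cells, Klf4 fell (-0.52) and passed it. Pou5f1, Zfp42, Esrrb and Nanog, at 0.07, -0.08, 0.09 and -0.13, did not. The embryonic globin Hbb-bh1, with a mean of 4.93 in siPRMT1 and 4.91 in siSCR embryoid bodies, lay under the 10th percentile of all genes (5.41), and the streak marker Mesp1 lay at 6.80 and 6.79. The table holds no detection call, so a gene in this low range cannot be told from background. In such bulk samples, fewer cells of a type and less RNA per cell cannot be told apart.

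Prmt1 itself gave 10.35, 10.29 and 10.26 on the siPRMT1 arrays, against 11.02, 10.85 and 10.92 on the siSCR arrays. The groups did not overlap. The log2 difference was -0.63 ± 0.06 (SE, n = 3 arrays a group), with an adjusted p of 3.20e-07 in limma, a linear model fitted to all genes over all 24 arrays and adjusted by the Benjamini-Hochberg method. Its level in the siPRMT1 embryoid bodies was 64.6% of that in siSCR embryoid bodies. An exact permutation test over the 6 arrays gave p = 0.1 (two-sided), the smallest value 3 against 3 arrays allow. The knockdown was deeper before aggregation, with a log2 difference of -1.37 ± 0.06 in undifferentiated cells, and the difference between the 2 stages was itself called (0.74 ± 0.09, limma adjusted p = 2.64e-06).

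In limma 3669 of 19938 genes (18.4%) passed an adjusted p of 0.05 and are referred to as called. Of these, 2272 were higher in siPRMT1 embryoid bodies (11.4% of the genes tested) and 1397 were lower (7.01%). Most differences were small: 73 called genes were at least 2-fold higher (0.366%) and 19 at least 2-fold lower (0.0953%). The arrays of the 2 lines did not overlap for 8100 genes (40.6%), which included 3627 of the called genes. Higher genes made up 61.9% of the calls in the values as deposited, 58.8% after median centring and 51.2% after quantile normalization. With every array scaled to the same SD, 1578 genes were called higher and 1575 lower, so the overall split moved with the scaling. The 30 genes named below as the largest rises and falls were picked among called genes without overlap between the lines. Their lack of overlap therefore follows from the rule and is given only to describe them. They kept their direction and call in each of these scalings, and without any 1 of the 6 day 4 arrays.

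Several of the 15 largest rises were secreted proteins that endoderm makes. Spink1, a secreted trypsin inhibitor, gave 9.86, 9.75 and 9.76 on the siPRMT1 arrays, against 7.45, 7.70 and 7.83 on the siSCR arrays. All siPRMT1 arrays lay above all siSCR arrays, by 2.13 ± 0.14 on the log2 scale, a 4.38-fold difference (limma adjusted p = 2.25e-09), the largest among the genes the naming rule admits. Apoa1, the main protein of high density lipoprotein, gave 10.91, 10.93 and 10.76 on the siPRMT1 arrays, against 9.10, 9.31 and 9.08 on the siSCR arrays. Ttr, the carrier of thyroxine and of the retinol complex, gave 11.32, 11.30 and 11.22 on the siPRMT1 arrays, against 9.70, 10.18 and 9.97 on the siSCR arrays. Cer1, which anterior visceral endoderm releases to block Nodal and BMP, gave 8.82, 8.83 and 8.44 on the siPRMT1 arrays, against 6.78, 7.03 and 6.65 on the siSCR arrays. These genes again had no overlap between the lines, and their log2 differences were 1.70 ± 0.08, 1.33 ± 0.11 and 1.88 ± 0.18.

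A second set of large rises held regulators of signalling and of cell fate. Lef1, which brings β-catenin to DNA in the Wnt pathway, gave 9.85, 9.91 and 9.88 on the siPRMT1 arrays, against 8.21, 8.15 and 8.15 on the siSCR arrays, a log2 difference of 1.71 ± 0.06 (limma adjusted p = 1.68e-13). The means differed 3.28-fold, and no siPRMT1 array came near the siSCR range. Fgf5, the growth factor that marks the epiblast after implantation, gave 10.06, 10.03 and 10.02 on the siPRMT1 arrays, against 8.60, 8.70 and 8.69 on the siSCR arrays. Rxrg, the gamma form of the retinoid X receptor, gave 8.49, 8.63 and 8.47 on the siPRMT1 arrays, against 6.85, 6.75 and 6.69 on the siSCR arrays. Cyp26a1, the hydroxylase that breaks down retinoic acid, gave 10.44, 10.39 and 10.35 on the siPRMT1 arrays, against 8.67, 8.84 and 8.82 on the siSCR arrays. Both retinoid genes were separated between the lines, by 1.76 ± 0.08 and 1.61 ± 0.10. Sema6a, a transmembrane semaphorin, rose by 1.49 ± 0.07, and Il33, a cytokine held in the nucleus, rose by 1.38 ± 0.15.

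The other large rises were Cdh9, a classical cadherin (1.85 ± 0.15); Pilra, an inhibitory receptor of the immunoglobulin family (1.84 ± 0.16); Ugt2b34, a glucuronosyltransferase (1.74 ± 0.10); Vat1l (1.56 ± 0.12); and Nudt11, a phosphohydrolase of inositol pyrophosphates (1.54 ± 0.17). Cdh9 gave 9.03, 9.28 and 9.25 on the siPRMT1 arrays, against 7.40, 7.01 and 7.60 on the siSCR arrays, so its lowest siPRMT1 array lay above its highest siSCR array by more than a 2-fold step.

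Among the 15 largest falls, Tgm2, a transglutaminase that cross-links proteins and a known target of retinoic acid in other cells, gave 8.74, 8.72 and 8.59 on the siPRMT1 arrays, against 10.18, 10.21 and 10.18 on the siSCR arrays. The log2 difference was -1.51 ± 0.08, which left Tgm2 at 0.351 times its siSCR level (limma adjusted p = 5.75e-11), with no overlap. Ndufa4l2, a mitochondrial protein that hypoxia-inducible factor 1 (HIF-1) induces, gave 8.78, 8.68 and 8.92 on the siPRMT1 arrays, against 9.95, 10.13 and 10.23 on the siSCR arrays. Bhlhe40, a transcriptional repressor that also responds to hypoxia, gave 8.95, 8.96 and 8.99 on the siPRMT1 arrays, against 10.12, 10.22 and 10.28 on the siSCR arrays. Both were lower on all 3 siPRMT1 arrays, with log2 differences of -1.31 ± 0.10 and -1.24 ± 0.10.

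Prdm1, the repressor that sets aside germ cells and is also made in visceral endoderm, gave 8.86, 8.89 and 8.81 on the siPRMT1 arrays, against 10.01, 10.17 and 10.23 on the siSCR arrays, a log2 difference of -1.28 ± 0.09 (limma adjusted p = 3.57e-09). The lines were separated by more than a 2-fold step here too. Sohlh2, a germ cell transcription factor, fell by 1.03 ± 0.06 on the log2 scale. Ccng2, an unusual cyclin linked to cell cycle arrest, gave 8.58, 8.53 and 8.46 on the siPRMT1 arrays, against 9.55, 9.84 and 9.75 on the siSCR arrays. Ier3, an early response gene, gave 7.76, 7.76 and 7.79 on the siPRMT1 arrays, against 8.72, 8.90 and 8.89 on the siSCR arrays. Neither overlapped between the lines, with log2 differences of -1.19 ± 0.09 and -1.06 ± 0.15.

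Several of the remaining falls encode secreted proteins. The log2 differences were -1.07 ± 0.08 and -1.07 ± 0.12 for the protease inhibitors A2m and Fetub, -1.20 ± 0.06 for the cartilage matrix protein Crtac1, and, for the whey acidic protein Wfdc2, -1.08 ± 0.09. Fxyd6, a regulator of the sodium pump, gave 10.05, 10.01 and 10.09 on the siPRMT1 arrays, against 11.17, 11.18 and 11.16 on the siSCR arrays, a separation of -1.12 ± 0.06 with little spread within either line. Got1l1, Ccdc141 and Gdap10 completed the 15, with log2 differences of -1.14 ± 0.13, -1.03 ± 0.10 and -1.002 ± 0.20.

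**Figure D1:**
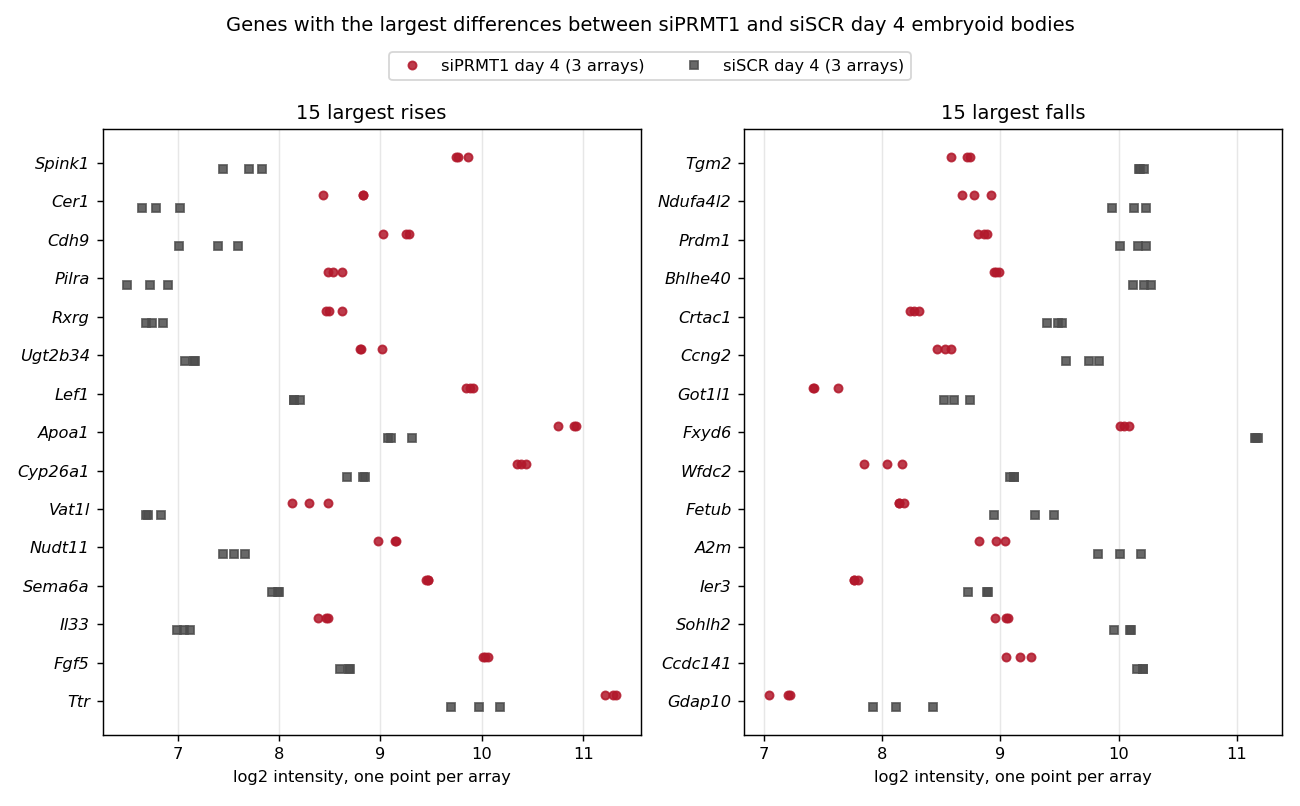
Log2 intensity (x axis) on each of the 3 siPRMT1 arrays (red circles, upper) and the 3 siSCR arrays (grey squares, lower) of day 4 embryoid bodies, for the 15 largest rises (left) and the 15 largest falls (right). The 30 genes were picked among called genes without overlap between the 2 groups. Spink1 has the widest gap between means on the left (2.13 on the log2 scale) and Tgm2 on the right (-1.51).

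Genes were also counted in lists by pathway, cell type and process, which were chosen with earlier results of these data known. Over all 19938 genes the median log2 difference was -0.02. The 5 lists with the highest medians were visceral endoderm uptake (0.55), endoderm transcription factors (0.48), primed epiblast (0.43), basement membrane and parietal endoderm (0.42) and visceral endoderm carriers (0.32). Among lists of more than 1 gene, the lowest medians were those of hypoxia (-0.33), naive pluripotency (-0.24), fibroblast and feeder genes (-0.22) and glycolysis (-0.17). The lists share some members, and no test of a list was made.

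**Figure D2:**
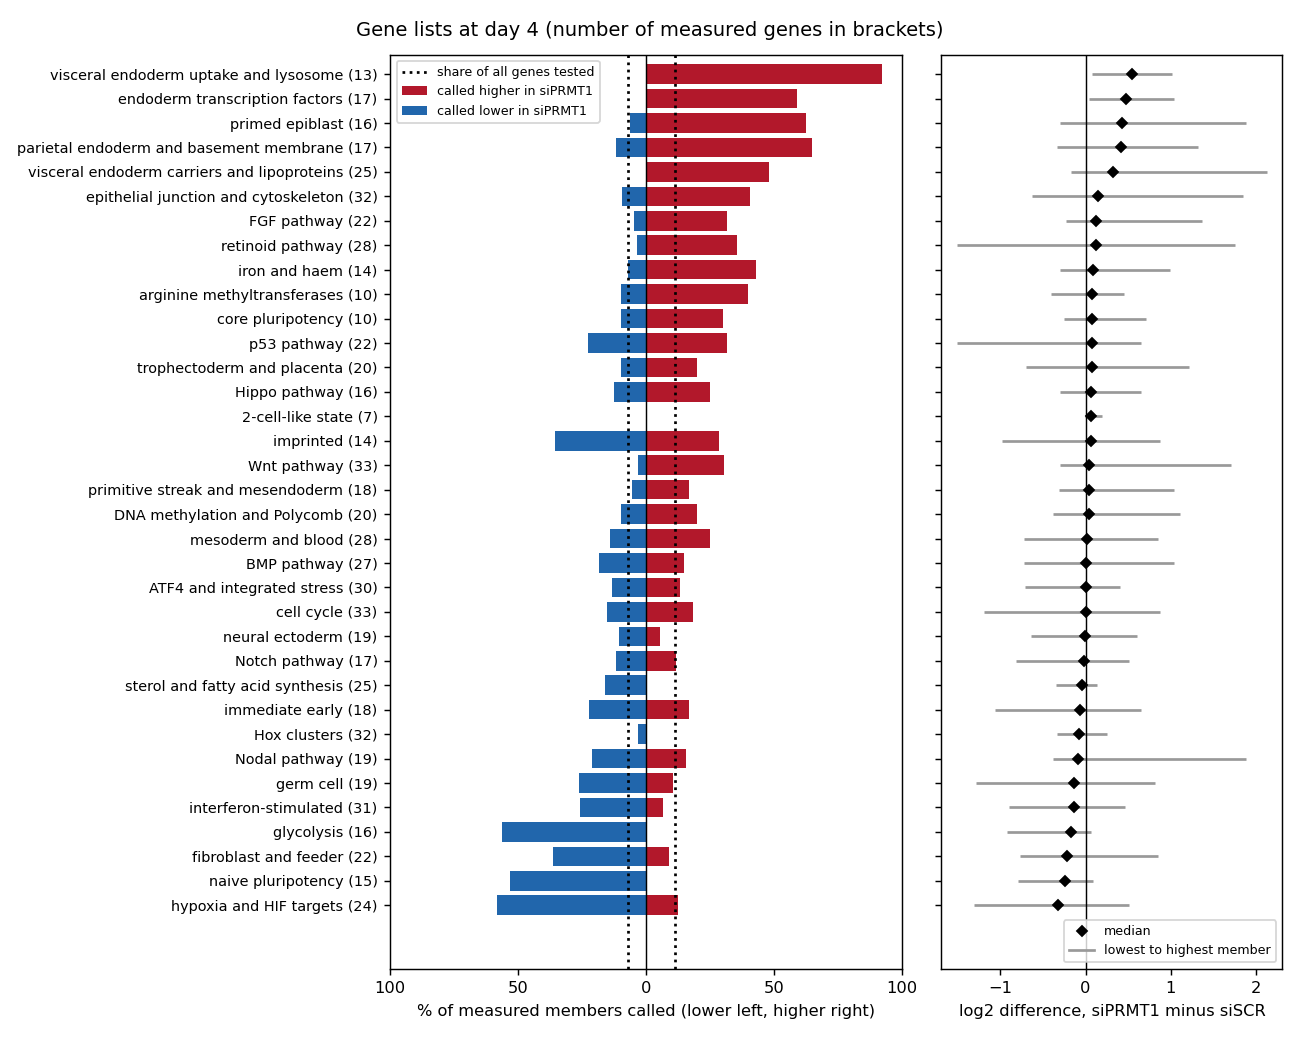
For each gene list, the left panel shows the percent of measured members called higher (red) or lower (blue) in siPRMT1 day 4 embryoid bodies, with dotted lines at the shares over all genes tested (11.4% and 7.01%). The right panel shows the list's median log2 difference (diamond) and its range (line); endoderm and epiblast lists stand at the top and hypoxia, naive pluripotency and feeder lists at the bottom.

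Each functional class of extraembryonic endoderm genes held members called higher, but not to the same degree. The class of carriers and plasma proteins had 3 of 11 called higher, and that of basement membrane linkers 1 of 4. The whole list of visceral endoderm carriers and lipoproteins had 12 of 25 called higher and 13 not called. Of 72 measured members of the 4 endoderm lists, each counted once, 45 were called higher and 2 lower. Over all genes the shares were 11.4% and 7.01%. Among transcription factors, 10 of 17 were called higher and 0 lower in limma (0 also at an unadjusted p under 0.05). Foxa2, a pioneer factor of endoderm, gave 9.32, 9.22 and 9.22 on the siPRMT1 arrays, against 8.27, 8.37 and 8.30 on the siSCR arrays. Lhx1, which acts with Foxa2 and Otx2 in anterior visceral endoderm, gave 8.80, 8.88 and 8.45 on the siPRMT1 arrays, against 7.55, 7.88 and 7.59 on the siSCR arrays. Hnf4a, the nuclear receptor that drives lipoprotein and carrier genes in visceral endoderm, gave 10.87, 10.85 and 10.73 on the siPRMT1 arrays, against 10.00, 10.20 and 10.18 on the siSCR arrays. None of the 3 overlapped between the lines, which held for 40.6% of all genes. The log2 differences were 0.94 ± 0.06, 1.04 ± 0.10 and 0.69 ± 0.07. The GATA factors that begin the primitive endoderm programme rose by 0.76 ± 0.07 (Gata4) and 0.75 ± 0.05 (Gata6), Otx2 by 0.87 ± 0.11, Hhex by 0.59 ± 0.12 and Sox7 by 0.51 ± 0.11. Factors of the later gut, Foxa1 (0.04), Foxa3 (0.14) and Pdx1 (0.07), were not called.

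Lipoprotein genes followed a split by member. Besides Apoa1, the export protein Mttp, which loads lipid onto apolipoprotein B, gave 10.06, 10.07 and 10.02 on the siPRMT1 arrays, against 8.80, 8.76 and 8.67 on the siSCR arrays, and Apob itself gave 9.22, 9.14 and 9.15 on the siPRMT1 arrays, against 7.88, 8.18 and 8.06 on the siSCR arrays. Every siPRMT1 array was above every siSCR array for both genes, with log2 differences of 1.30 ± 0.10 and 1.13 ± 0.11. Apom (1.08 ± 0.10) and Apoa4 (0.63 ± 0.10) were also called, whereas Apoa2 (-0.12) and Apoc3 (-0.04) were not. Dpp4, a peptidase of the apical membrane, gave 11.04, 11.06 and 11.13 on the siPRMT1 arrays, against 9.98, 9.96 and 10.01 on the siSCR arrays. The signal Ihh, which visceral endoderm sends to the cells beneath it, rose by 0.51 ± 0.10 and the clotting protease F10 by 0.54 ± 0.11. Plasma proteins of more mature visceral endoderm or liver lay low and were not called: Afp averaged 7.08 ± 0.08 in siPRMT1 and 6.76 ± 0.13 in siSCR (SD, n = 3 arrays each), with a log2 difference of 0.32 ± 0.15 and an adjusted p of 0.146 in limma, and Alb averaged 5.54 ± 0.02 in siPRMT1 and 5.57 ± 0.15 in siSCR.

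Uptake and digestion genes had the largest share of calls among the lists of more than 1 gene, with 12 of 13 measured members called higher. Cubn and Amn form the receptor complex that visceral endoderm uses to take up maternal proteins, and Lrp2 (megalin) carries it inward. Amn gave 10.83, 10.83 and 10.65 on the siPRMT1 arrays, against 9.89, 10.14 and 10.00 on the siSCR arrays. Lrp2 gave 12.33, 12.33 and 12.25 on the siPRMT1 arrays, against 11.64, 11.81 and 11.71 on the siSCR arrays. Cubn gave 13.11, 13.13 and 13.13 on the siPRMT1 arrays, against 12.49, 12.63 and 12.61 on the siSCR arrays. All 3 were separated between the lines, by 0.76 ± 0.08, 0.58 ± 0.08 and 0.55 ± 0.10. The endocytic adaptor Dab2 rose by 0.44 ± 0.07, and the lysosomal proteases Ctsc, Ctsz, Ctsh, Ctsb and Lgmn by 0.72, 0.64, 0.64, 0.33 and 0.41 on the log2 scale. The metal transporter Slc39a8 rose by 1.01 ± 0.17. Cdh1, the epithelial cadherin that epiblast and endoderm both make, differed by 0.08 ± 0.04 and was not called.

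Of the basement membrane genes, the chains of the first laminin of the embryo and of collagen IV rose. That laminin is made of Lama1, Lamb1 and Lamc1, and collagen IV of Col4a1 and Col4a2. Lamb1 gave 12.07, 12.06 and 11.98 on the siPRMT1 arrays, against 11.20, 11.14 and 11.13 on the siSCR arrays. Lama1 gave 12.49, 12.50 and 12.43 on the siPRMT1 arrays, against 11.67, 11.74 and 11.66 on the siSCR arrays. Lamc1, Col4a1 and Col4a2 rose by 0.42 ± 0.06, 0.66 ± 0.07 and 0.74 ± 0.07. In contrast Lama5, the alpha chain of a later laminin, fell by 0.34 ± 0.06, and the linker proteins Nid1 (-0.17), Nid2 (-0.10) and Hspg2 (0.11) were not called. Of genes that mark parietal endoderm, Plat, the plasminogen activator of tissue type, gave 9.78, 9.81 and 9.61 on the siPRMT1 arrays, against 8.41, 8.44 and 8.40 on the siSCR arrays, and Pth1r, the receptor that starts the parietal fate, gave 10.72, 10.68 and 10.54 on the siPRMT1 arrays, against 9.60, 9.57 and 9.57 on the siSCR arrays. The lines did not overlap for either, at 1.32 ± 0.08 and 1.07 ± 0.11. Thrombomodulin (Thbd) rose by 0.57 ± 0.13.

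**Figure D3:**
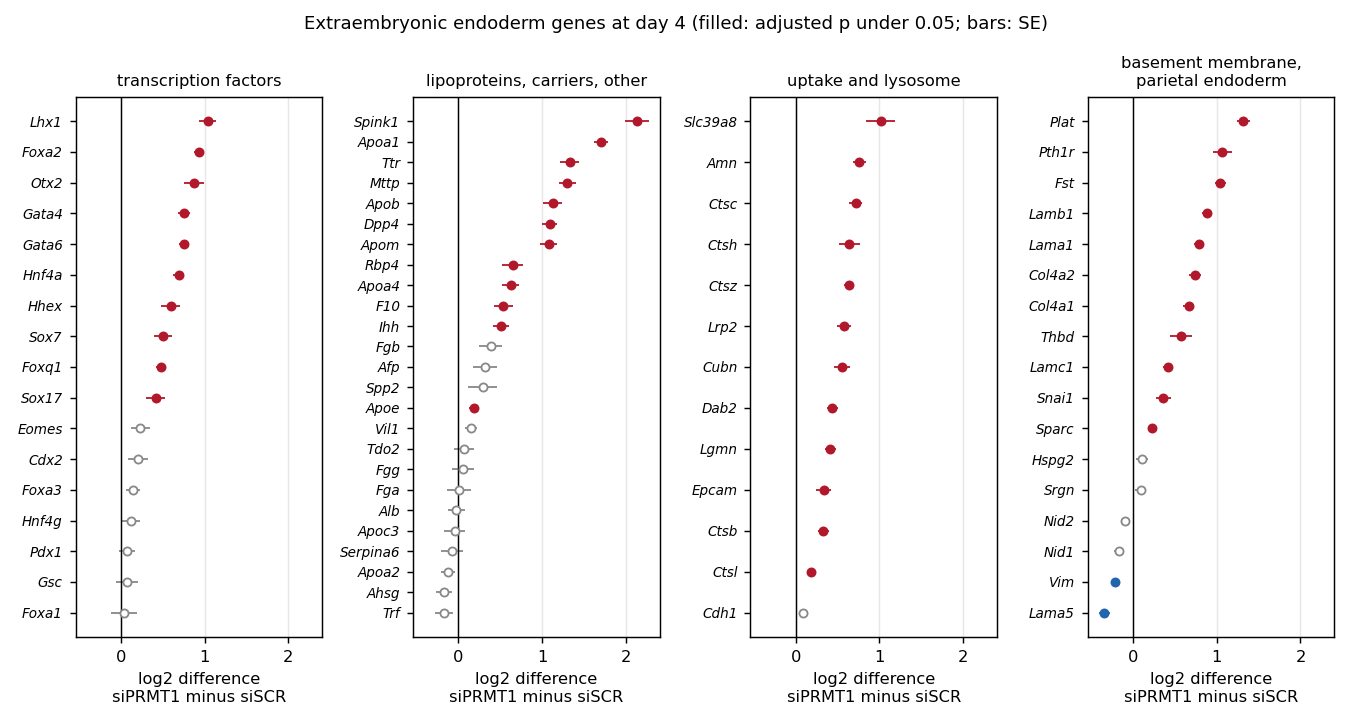
Log2 difference between siPRMT1 and siSCR day 4 embryoid bodies (x axis, with SE bars) for the members of the 4 endoderm lists; filled points passed an adjusted p of 0.05. Filled red points hold the upper part of each panel, and the filled blue points are Vim and Lama5 in the basement membrane and parietal panel.

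Genes of the epiblast after implantation were mostly called higher and those of the naive state lower. In the primed epiblast list 10 of 16 measured members were called higher and 1 lower. Grhl2, an epithelial transcription factor of the primed state, gave 8.53, 8.55 and 8.44 on the siPRMT1 arrays, against 7.26, 7.23 and 7.18 on the siSCR arrays, and Zic2 rose by 0.53 ± 0.10. The de novo DNA methyltransferases belonged to this change. Dnmt3a gave 10.66, 10.68 and 10.52 on the siPRMT1 arrays, against 9.57, 9.43 and 9.52 on the siSCR arrays. Dnmt3b gave 11.36, 11.36 and 11.35 on the siPRMT1 arrays, against 10.51, 10.41 and 10.46 on the siSCR arrays. The 2 enzymes were higher on every siPRMT1 array, by 1.11 ± 0.06 and 0.90 ± 0.06 (limma adjusted p = 1.28e-10 and 1.80e-09), and their cofactor Dnmt3l rose by 0.71 ± 0.06. Dnmt1, the maintenance enzyme, differed by 0.08 ± 0.05 and Uhrf1, which recruits it, by 0.09 ± 0.06; neither was called. Tet1, which oxidises methylcytosine, fell by 0.21 ± 0.05. Polycomb genes mostly showed no call: of 11 measured, Kdm2b was higher (0.42 ± 0.06) and Ezh1 lower (-0.38 ± 0.08).

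In the naive list 8 of 15 measured members were called lower and 0 higher in limma (0 also at an unadjusted p under 0.05). Leaving out each of the 6 day 4 arrays in turn gave 6 to 8 called members. Tcl1, a coactivator of the Akt kinase, gave 11.18, 11.25 and 11.09 on the siPRMT1 arrays, against 11.99, 11.91 and 11.98 on the siSCR arrays, and the log2 difference was -0.79 ± 0.08. Prdm14, which keeps DNA methylation low in naive cells, gave 9.04, 9.03 and 9.08 on the siPRMT1 arrays, against 9.76, 9.57 and 9.62 on the siSCR arrays, with a difference of -0.60 ± 0.07. The transcription factors Klf2, Tfcp2l1 and Esrrb fell, with log2 differences of -0.42, -0.41 and -0.26. Of 10 core pluripotency genes 3 were called higher and 1 lower. The rises were Dnmt3l (0.71 ± 0.06), Lin28a (0.32 ± 0.07) and Sall4 (0.12 ± 0.04), and the fall was Nanog (-0.25 ± 0.05), while Pou5f1 (0.03 ± 0.04) and Sox2 (-0.17 ± 0.07) were not called. The call of Sall4 was lost in all 3 scalings and without any 1 of 5 of the 6 day 4 arrays. Zfp42, a marker of the undifferentiated state, was at 11.68 ± 0.06 in siPRMT1 and 11.59 ± 0.10 in siSCR and was not called.

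Of 9 measured genes that specify primordial germ cells, Prdm1 among them, 5 were called lower and 0 higher in limma (0 also at an unadjusted p under 0.05). Tfap2c, which acts with Prdm1 and Prdm14 in this step, gave 7.15, 7.17 and 6.90 on the siPRMT1 arrays, against 7.61, 7.93 and 7.77 on the siSCR arrays. Ifitm3, a membrane protein also induced by interferon, gave 11.64, 11.57 and 11.67 on the siPRMT1 arrays, against 12.47, 12.49 and 12.61 on the siSCR arrays. Both were separated between the lines, at -0.70 ± 0.11 and -0.89 ± 0.05. Nanos3 (-0.31 ± 0.11) and Dppa3 (-0.41 ± 0.19) had negative values and were not called. Among 10 genes of later germ cells 2 were called higher and 0 lower in limma (1 lower at an unadjusted p under 0.05). These were Sycp3 (0.82 ± 0.24), a protein of the meiotic chromosome axis, and Ddx4 (0.45 ± 0.14), a germ cell helicase, and each lost its call without some of the 6 day 4 arrays.

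The called members of the signalling lists included ligands, antagonists, receptors and transcription factors. In the FGF list 4 of 7 ligands were called higher. Besides Fgf5, Fgf10 gave 9.94, 10.02 and 9.95 on the siPRMT1 arrays, against 8.90, 9.02 and 8.94 on the siSCR arrays and Fgf15 gave 9.39, 9.45 and 9.20 on the siPRMT1 arrays, against 8.64, 8.56 and 8.43 on the siSCR arrays. Fgf3 rose by 0.58 ± 0.07, and Fgf4, the main ligand of ES cells, differed by -0.11 ± 0.08 and was not called. Of the receptors Fgfr3 (0.36 ± 0.07) and Fgfr4 (0.51 ± 0.07) were called higher. Feedback genes of the ERK pathway did not move one way: Dusp4, a phosphatase of ERK, rose by 0.65 ± 0.10, Spry4 had a value of -0.23 ± 0.06, and Dusp6, Spry2, Etv4 and Etv5 were not called.

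In the Wnt list 10 of 33 measured members were called higher and 1 lower, and 0 of 7 ligands were called in limma (2 at an unadjusted p under 0.05). Next to Lef1, the related factor Tcf7l2 rose by 0.45 ± 0.08. Axin2 and Notum, feedback inhibitors that Wnt signalling induces, rose by 0.46 ± 0.11 and 0.56 ± 0.12, while the other targets Sp5 (-0.09), Nkd1 (-0.04) and Lgr5 (-0.06) were not called. The extracellular antagonists Sfrp5, Frzb and Dkk1, of which Sfrp5 and Dkk1 mark anterior visceral endoderm, rose by 0.96 ± 0.12, 0.77 ± 0.14 and 0.66 ± 0.09. Dkk1 gave 11.59, 11.58 and 11.52 on the siPRMT1 arrays, against 10.77, 11.02 and 10.92 on the siSCR arrays. Sfrp1 fell by 0.30 ± 0.05.

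Of 19 Nodal pathway genes 3 were called higher and 4 lower, where 11.4% and 7.01% of all genes were. Nodal and its partner Gdf3 were not called, at 0.11 ± 0.07 and 0.12 ± 0.12. The coreceptors went apart: Cfc1 rose by 0.57 ± 0.12 and Tdgf1 (Cripto) fell by 0.21 ± 0.05. The convertase Pcsk6 and the receptor Acvr1b fell, with log2 differences of -0.38 and -0.30, and of the 3 antagonists Cer1 rose, Lefty2 fell (-0.30 ± 0.09) and Lefty1 was not called (0.06 ± 0.07); the call of Lefty2 was lost without any 1 of 4 of the 6 day 4 arrays. In the BMP list, Bmp2, a ligand of visceral endoderm, gave 8.63, 8.74 and 8.46 on the siPRMT1 arrays, against 7.83, 7.60 and 7.56 on the siSCR arrays, and the groups did not overlap. Bmp4 differed by 0.00 ± 0.05 and was not called, and Bmp7 fell by 0.51 ± 0.09. The antagonist follistatin (Fst), which binds activin, gave 11.10, 11.05 and 11.06 on the siPRMT1 arrays, against 10.06, 9.93 and 10.09 on the siSCR arrays. Bmper rose by 0.91 ± 0.08, Grem1 fell by 0.72 ± 0.12, and the target genes Id2 and Id4 moved apart (0.58 ± 0.06 and -0.51 ± 0.08), with Id1 (-0.14) and Id3 (-0.05) not called.

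**Figure D4:**
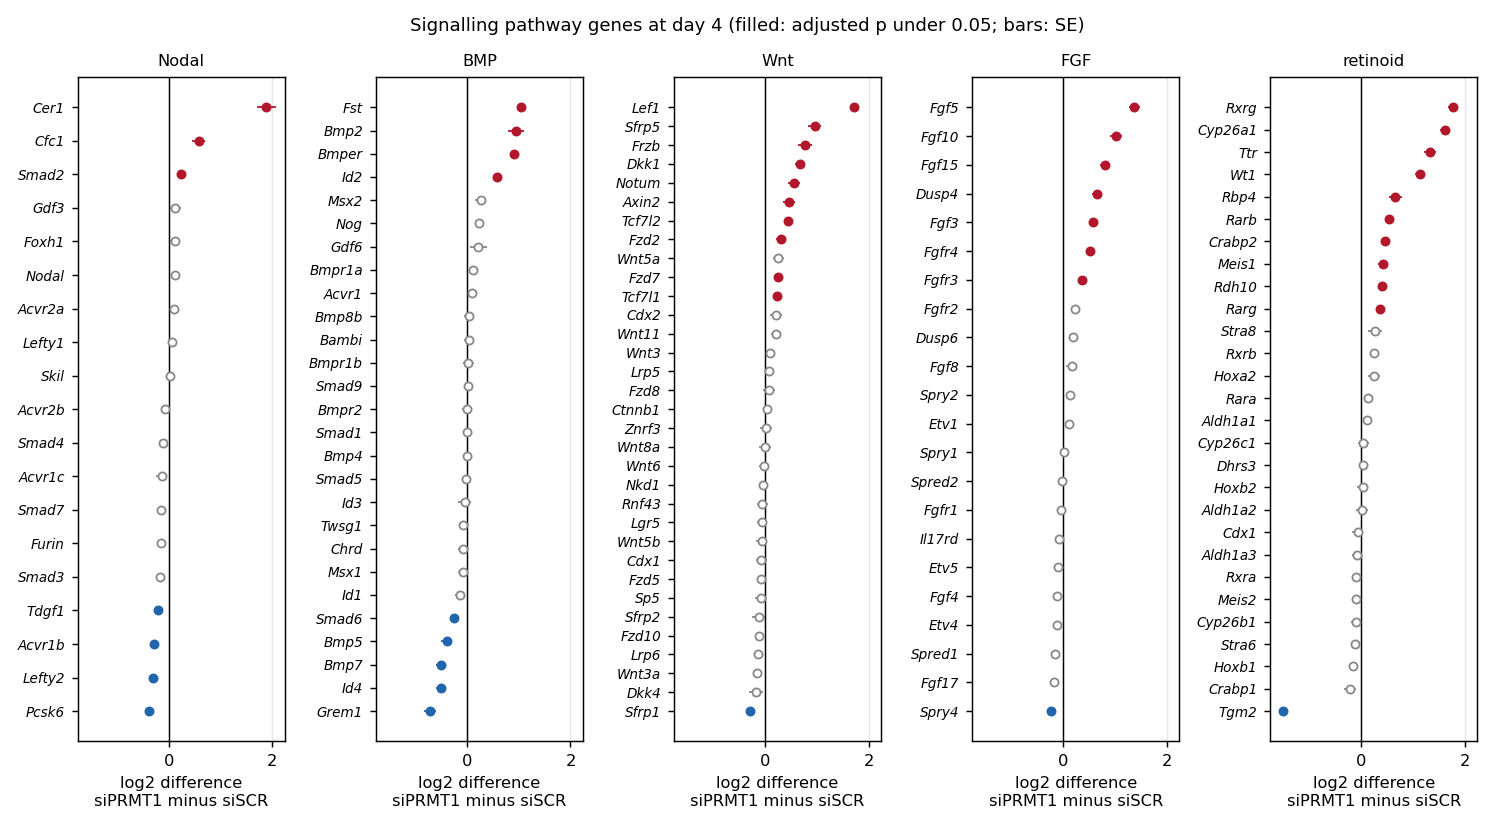
Log2 difference between siPRMT1 and siSCR day 4 embryoid bodies (x axis, with SE bars) for the measured members of 5 signalling lists, ordered by value; filled points passed an adjusted p of 0.05. Cer1, Fst, Lef1, Fgf5 and Rxrg lead the Nodal, BMP, Wnt, FGF and retinoid panels, and Tgm2 at -1.51 is the lowest point.

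Retinoid genes were called higher in 10 of 28 and lower in 1. Retinoic acid binds receptors of the RAR family, which pair with RXR on repeats of a short motif. Rarb, a receptor that retinoic acid itself induces, gave 7.20, 7.26 and 7.32 on the siPRMT1 arrays, against 6.69, 6.73 and 6.76 on the siSCR arrays. Crabp2, which delivers retinoic acid to the nucleus, rose by 0.46 ± 0.08, the retinol dehydrogenase Rdh10 by 0.39 ± 0.07, the plasma carrier Rbp4 by 0.65 ± 0.12 and Rarg by 0.35 ± 0.06. Wt1 gave 8.86, 8.77 and 8.62 on the siPRMT1 arrays, against 7.67, 7.61 and 7.58 on the siSCR arrays, and Meis1 rose by 0.41 ± 0.10. The aldehyde dehydrogenases that complete synthesis were not called, with Aldh1a2 at 0.01 ± 0.12, nor were the Hox genes of the list, such as Hoxb1 (-0.16 ± 0.08) and Hoxa2 (0.25 ± 0.12). The single fall was Tgm2. Over the 32 measured genes of the Hox clusters 0 were called higher in limma (0 also at an unadjusted p under 0.05) and 1 lower.

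The promoter windows of Cyp26a1 and Rarb (RefSeq, build GRCm38.p6, 250 bases before to 50 after the annotated start, 5′ to 3′ on the gene's strand) are printed because each holds 2 receptor-binding motifs, spelt AGTTCA or GGTTCA on either strand and shown in capitals, that lie 5 bases apart in one orientation. Cyp26a1 is at chr19:37697558-37697857, plus strand, and Rarb at chr14:16575427-16575726, minus strand.
Cyp26a1: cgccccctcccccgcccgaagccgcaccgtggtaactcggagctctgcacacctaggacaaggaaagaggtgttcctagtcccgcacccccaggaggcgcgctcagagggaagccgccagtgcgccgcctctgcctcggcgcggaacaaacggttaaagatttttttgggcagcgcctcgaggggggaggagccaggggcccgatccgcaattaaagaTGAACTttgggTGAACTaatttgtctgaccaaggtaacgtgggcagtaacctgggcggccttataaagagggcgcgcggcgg
Rarb: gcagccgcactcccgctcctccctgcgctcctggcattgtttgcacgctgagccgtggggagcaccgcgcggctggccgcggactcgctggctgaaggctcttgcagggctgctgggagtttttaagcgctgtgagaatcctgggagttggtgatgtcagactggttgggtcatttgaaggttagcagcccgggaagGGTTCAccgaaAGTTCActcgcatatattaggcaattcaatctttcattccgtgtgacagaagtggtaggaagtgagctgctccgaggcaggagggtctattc
In Cyp26a1 the matches begin 32 and 21 bases before the start, and in Rarb 53 and 42 bases before it. Over the 15614 measured genes with a window, 20.4% held at least 1 such motif, so a single match is common and neither match shows that a receptor was bound there.

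Hypoxia-responsive and glycolytic genes were mostly called lower or not called. Under low oxygen the factor HIF-1 escapes the prolyl hydroxylases (Egln1 and Egln3) and induces genes of glucose use, vessel growth and its own feedback. Of 24 measured members of the hypoxia list 14 were called lower and 3 higher, and of 16 glycolytic genes 9 were called lower and 0 higher in limma (0 also at an unadjusted p under 0.05). Vegfa, the main vessel growth factor, gave 10.57, 10.57 and 10.46 on the siPRMT1 arrays, against 11.22, 11.30 and 11.32 on the siSCR arrays. Egln3 gave 11.54, 11.58 and 11.49 on the siPRMT1 arrays, against 12.23, 12.27 and 12.33 on the siSCR arrays. Ndrg1, a stress-induced cytoplasmic protein, gave 11.00, 11.05 and 10.90 on the siPRMT1 arrays, against 11.47, 11.67 and 11.60 on the siSCR arrays. Each was lower on every siPRMT1 array, with log2 differences of -0.75 ± 0.06, -0.74 ± 0.06 and -0.59 ± 0.08.

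Further members were called lower as well. The log2 difference was -0.71 ± 0.06 for Ddit4, an inhibitor of mTOR, -0.70 ± 0.10 for Ankrd37, -0.48 ± 0.11 for the peptide hormone Adm and, for the mitophagy receptor Bnip3, -0.37 ± 0.06. Among enzymes of glucose use, Aldoc (aldolase C) gave 10.37, 10.41 and 10.29 on the siPRMT1 arrays, against 11.31, 11.29 and 11.25 on the siSCR arrays, the widest difference of the list at -0.92 ± 0.06 (limma adjusted p = 9.55e-10). Eno2, Pfkfb3 and Pfkp fell, with log2 differences of -0.57, -0.55 and -0.43, as did the glucose transporter Slc2a1, at -0.24 ± 0.04. Pkm (-0.12), Ldha (-0.11) and Pdk1 (-0.08) were not called, and neither was the carbonic anhydrase Car9 (-0.08). Among the 6 members listed as sensors or feedback enzymes, 3 were called higher and 2, the HIF prolyl hydroxylases Egln1 (-0.48) and Egln3 (-0.74), lower. Epas1, which encodes HIF-2 alpha, gave 11.88, 11.94 and 11.88 on the siPRMT1 arrays, against 11.48, 11.28 and 11.42 on the siSCR arrays, a rise of 0.51 ± 0.07, and the collagen prolyl hydroxylase P4ha2 rose by 0.44 ± 0.09. Hif1a was at 0.22 ± 0.06, a call lost when the arrays were scaled to one SD.

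Promoter windows of Aldoc, Egln3 and Bnip3 are printed to show the core letters that HIF recognises, ACGTG or GCGTG on either strand, in capitals. They lie at chr11:78322823-78323122, plus strand (Aldoc), chr12:54203825-54204124, minus strand (Egln3) and chr7:138909457-138909756, minus strand (Bnip3), in the same build.
Aldoc: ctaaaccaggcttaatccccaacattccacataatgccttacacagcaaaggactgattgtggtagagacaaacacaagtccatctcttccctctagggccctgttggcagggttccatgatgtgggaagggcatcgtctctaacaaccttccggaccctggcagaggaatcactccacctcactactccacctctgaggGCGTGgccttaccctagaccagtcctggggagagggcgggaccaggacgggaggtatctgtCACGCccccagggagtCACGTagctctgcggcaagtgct
Egln3: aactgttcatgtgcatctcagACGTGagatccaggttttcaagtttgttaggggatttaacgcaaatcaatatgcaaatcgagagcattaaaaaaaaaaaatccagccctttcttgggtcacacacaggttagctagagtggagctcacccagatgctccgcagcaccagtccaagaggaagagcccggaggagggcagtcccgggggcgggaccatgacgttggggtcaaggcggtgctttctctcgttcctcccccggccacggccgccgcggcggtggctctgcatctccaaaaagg
Bnip3: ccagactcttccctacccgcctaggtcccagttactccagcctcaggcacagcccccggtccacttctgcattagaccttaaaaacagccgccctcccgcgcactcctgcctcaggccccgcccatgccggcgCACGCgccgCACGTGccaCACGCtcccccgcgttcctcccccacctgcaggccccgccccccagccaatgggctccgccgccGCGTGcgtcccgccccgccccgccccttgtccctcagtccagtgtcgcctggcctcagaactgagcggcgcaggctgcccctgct
The 3 windows held 3, 1 and 5 matches, counting both strands, and those of Bnip3 include a palindrome that counts once on each strand. Of 18 hypoxia and glycolysis genes called lower that had a window, 14 held a match (77.8%), as did 26 of the 34 measured members with a window (76.5%) and 51.9% of all 15614 windows. No test of these shares was made. Windows of the visceral endoderm members called higher held HNF1 letters (GTTAATNA) in 0 of 20 and HNF4 letters (CAAAGTCCA) in 0 of 20, where 2.2% and 0.4% of all windows held them; over all 30 visceral endoderm members with a window, 3 held HNF1 letters (10.0%) and 0 held HNF4 letters. GATA letters (AGATAA or TGATAA) stood in 4 of 20 and in 7 of the 30, against 15.1% of all, FOXA letters (TGTTTAC or TATTTAC) in 2 of 20 and 5 of the 30, against 5.3%, and TCF/LEF letters (CTTTGA) in 4 of 20 and 4 of the 30, against 2264 of the 15614.

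Further lists covered embryonic lineages other than endoderm. For the counts here, 11.4% of all genes were called higher and 7.01% lower. Of 18 measured primitive streak genes 3 were called higher and 1 lower, and T was not measured. Of the 3 rises 2, Lhx1 and Foxa2, are endoderm genes as well. Eomes (0.23 ± 0.12), Gsc (0.07 ± 0.14) and Wnt3 (0.09 ± 0.09) were not called. Of 28 mesoderm and blood genes 7 were called higher and 4 lower. Pdgfra, a receptor of primitive endoderm and mesoderm, gave 11.04, 10.92 and 10.93 on the siPRMT1 arrays, against 10.07, 10.21 and 10.06 on the siSCR arrays. The endothelial cadherin Cdh5 and the receptor Tek rose by 0.75 ± 0.11 and 0.62 ± 0.09, as did the transcription factors Gata1 (0.32 ± 0.08), Lmo2 (0.37 ± 0.09), Runx1 (0.33 ± 0.08) and Tcf15 (0.40 ± 0.07), of which Runx1 lost its call in 1 scaling and without 1 of the arrays. The cardiac genes Myl7 (-0.48 ± 0.10) and Tnnt2 (-0.39 ± 0.10) and the receptor Pdgfrb (-0.36 ± 0.06) were called lower, and Pecam1, which ES cells also make, gave 9.25, 9.16 and 9.28 on the siPRMT1 arrays, against 10.00, 9.91 and 9.95 on the siSCR arrays. Kdr (0.16 ± 0.10), Tal1 (-0.13 ± 0.13) and the 3 globins were not called. In the neural list 1 of 19 was called higher (Sox11, 0.60 ± 0.08) and 2 lower, of which Msi1, an RNA-binding protein of neural progenitors, fell by 0.64 ± 0.06. Sox1 was not called (-0.14 ± 0.09).

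Trophectoderm and placental genes were called higher in 4 of 20 and lower in 2, where 11.4% and 7.01% of all genes were. Cited1, a transcriptional coactivator of the placenta, gave 11.11, 10.90 and 11.07 on the siPRMT1 arrays, against 9.71, 9.81 and 9.92 on the siSCR arrays, and Plac1, a placental membrane protein, gave 8.43, 8.38 and 8.54 on the siPRMT1 arrays, against 7.14, 7.33 and 7.55 on the siSCR arrays. Cdx2 (0.21 ± 0.12), Elf5 (-0.10 ± 0.11) and Tpbpa (0.05 ± 0.20), which define trophoblast, were not called.

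Epithelial genes were called higher in 13 of 32 and lower in 3. Esrp1, the splicing factor of epithelial cells, gave 9.09, 9.07 and 8.90 on the siPRMT1 arrays, against 8.12, 7.79 and 7.92 on the siSCR arrays. The junction genes Ocln, Cldn6 and Dsc2 rose by 0.94 ± 0.09, 0.76 ± 0.08 and 0.67 ± 0.10. Cldn4 gave 10.02, 10.12 and 9.99 on the siPRMT1 arrays, against 10.70, 10.57 and 10.76 on the siSCR arrays and Krt19 fell by 0.63 ± 0.09, so claudins and keratins did not move as families. Cdh2 (N-cadherin) rose by 0.66 ± 0.11.

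Imprinted genes moved in both directions, with 4 of 14 called higher and 5 lower. Dlk1 and Meg3, the paternally and maternally expressed genes of one imprinted cluster, were both lower: Dlk1 gave 10.35, 10.36 and 10.35 on the siPRMT1 arrays, against 11.33, 11.46 and 11.20 on the siSCR arrays, and Meg3 gave 9.58, 9.52 and 9.45 on the siPRMT1 arrays, against 10.04, 10.48 and 10.55 on the siSCR arrays. Cdkn1c, a maternally expressed inhibitor of cyclin-dependent kinases, gave 10.78, 10.78 and 10.50 on the siPRMT1 arrays, against 9.89, 9.74 and 9.80 on the siSCR arrays. The growth factor Igf2 and the adaptor Grb10 rose by 0.63 ± 0.08 and 0.50 ± 0.06, and the transporter Slc22a18 fell by 0.48 ± 0.07. Genes of iron and haem handling were called higher in 6 of 14 and lower in 1, led by the iron exporter Slc40a1, with 9.32, 9.39 and 9.26 on the siPRMT1 arrays, against 8.07, 8.37 and 8.56 on the siSCR arrays, and by ferrochelatase (Fech, 0.44 ± 0.10). The transferrin receptor Tfrc fell by 0.30 ± 0.05.

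Fibroblast markers were included because the cells had been grown on feeders earlier. Of 22 measured, 8 were called lower and 2 higher, and the mean log2 level over the list lay between 8.24 and 8.28 on the siPRMT1 arrays, against 8.38 to 8.51 on the siSCR arrays. Dcn (decorin) gave 8.35, 8.40 and 8.44 on the siPRMT1 arrays, against 9.21, 9.21 and 9.08 on the siSCR arrays, and Fn1 fell by 0.51 ± 0.05. Lum averaged 4.83 ± 0.15 in siPRMT1 and 4.69 ± 0.13 in siSCR, under the 10th percentile of all genes, and Postn averaged 6.08 ± 0.03 in siPRMT1 and 6.25 ± 0.08 in siSCR. Members such as Fn1 and Pdgfra are also made by endoderm, and Pdgfra is 1 of the 2 rises. The part of feeder cells in the other results was not tested.

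Interferon-stimulated genes were called lower in 8 of 31 and higher in 2. Ifitm1 gave 11.49, 11.47 and 11.39 on the siPRMT1 arrays, against 12.06, 12.24 and 12.30 on the siSCR arrays, and Xaf1 and Oas2 fell, with log2 differences of -0.90 ± 0.09 and -0.59 ± 0.12. The sensors and the Ifit genes were not called, with Ifit1 at 0.06 ± 0.18. Early response genes included Dusp1, a phosphatase of MAP kinases, with 10.95, 11.06 and 10.90 on the siPRMT1 arrays, against 11.58, 11.65 and 11.75 on the siSCR arrays; Myc rose by 0.38 ± 0.09 and Fosb differed by -0.04 ± 0.10. In the Hippo list 4 of 16 were called higher and 2 lower. Of its 6 target genes 3 were called higher, among them Ccn1 and Ccn2, which YAP induces (0.65 ± 0.12 and 0.48 ± 0.07). Ankrd1 (0.04), Amotl2 (0.16) and Axl (-0.18) were not called, and the factors Tead1 (-0.30) and Wwtr1 (-0.20) were called lower. Notch4, a receptor of endothelium, gave 9.53, 9.55 and 9.40 on the siPRMT1 arrays, against 10.33, 10.29 and 10.32 on the siSCR arrays.

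Lists of growth and stress genes had calls in both directions or few calls, where 11.4% of all genes were called higher and 7.01% lower. The ATF4 list had 4 of 30 called higher and 4 lower, with Atf4 at 0.00 ± 0.07 and Asns at -0.10 ± 0.04, although Nupr1 fell by 0.65 ± 0.10. The p53 list had 7 of 22 higher and 5 lower, with Plk2 at 0.65 ± 0.07, Pltp at -0.63 ± 0.05 and the p53 inhibitor Mdm4 at -0.38 ± 0.07. Sterol and fatty acid synthesis had 4 of 25 lower and 0 higher in limma (1 higher at an unadjusted p under 0.05), with Srebf2 at -0.27 ± 0.05. The cell cycle list had 6 of 33 higher and 5 lower, a split that went to 1 and 5 when arrays were scaled to one SD. Of 7 measured genes of the 2-cell-like state 0 were called either way in limma at day 4, and 0 at an unadjusted p under 0.05. Zfp352 was at 0.03 ± 0.09. The other 9 of the 16 listed were not measured, Zscan4c, Zscan4d and Zscan4f among them, so the list covers this state only in part. The difference from the knockdown effect in undifferentiated cells was called higher for 6 of the 7, and for 15% of all genes. In the arginine methyltransferase family Prmt2 rose by 0.45 ± 0.07 and Prmt8 fell by 0.40 ± 0.08; the main type II enzyme Prmt5 was at 0.20 ± 0.05 and Carm1 at 0.05 ± 0.05.

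The knockdown difference at day 4 was then set against that in undifferentiated cells, by testing the difference between them in the same limma fit. It was called for 4754 genes (23.8%), of which 2994 were more positive at day 4 (15%) and 1760 more negative (8.83%). After median centring 48.6% of these calls were positive and after scaling to one SD 41.6%, against 63.0% in the values as deposited, so this split moved with the scaling as well. Of the 3669 genes called at day 4, 1390 were also called in undifferentiated cells, which is 37.9% of the day 4 calls and 37.1% of the 3747 calls in undifferentiated cells. Among those 1390, 981 (70.6%) had opposite directions at the 2 stages. The stage difference was called for 2601 of the 3669 day 4 calls (70.9%), the share to read the counts below against.

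Most of the leading rises were not called before aggregation. The difference between stages was called for all 15 of them, and in undifferentiated cells 3 were called, each lower (Rxrg, Sema6a and Il33). Rxrg rose at day 4 by 1.76 ± 0.08 and differed by -0.36 ± 0.08 in undifferentiated cells, a stage difference of 2.12 ± 0.12 (limma adjusted p = 1.73e-10). Cer1, Cdh9 and Ugt2b34 had undifferentiated values of -0.01, -0.02 and -0.04. Endoderm members called higher at day 4 numbered 45, and the stage difference was called higher for 34 of them. Over all day 4 calls it was called, in either direction, for 70.9%. Of the 45 endoderm members, 13 were called higher in undifferentiated cells too, and 5 were called lower there. Over all day 4 calls, 37.9% were called in undifferentiated cells, in either direction. Gata4, for example, rose by 0.76 ± 0.07 at day 4 and by 0.46 ± 0.07 before, and Ctsc by 0.72 ± 0.08 and 0.65 ± 0.08.

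For the leading falls, all 15 had a called stage difference, and 7 were called higher and 3 lower in undifferentiated siPRMT1 cells. Tgm2 was -1.51 ± 0.08 at day 4 and 0.62 ± 0.08 in undifferentiated cells. Ndufa4l2 was -1.31 ± 0.10 at day 4 and 0.98 ± 0.10 before aggregation. In the hypoxia and glycolysis lists, of 40 measured members 23 were called lower at day 4, the stage difference was called lower for all 23, and 13 of them were called higher in undifferentiated siPRMT1 cells. Aldoc was -0.92 ± 0.06 at day 4 and 1.11 ± 0.06 before. Ndrg1, Bnip3 and Egln3 had day 4 values of -0.59, -0.37 and -0.74 and undifferentiated values of 0.93, 0.76 and 0.50.

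Among the 20 genes with the largest stage differences, 15 were called at both stages in opposite directions. Ranking by this difference favours genes that move in opposite directions, so the count partly follows from how the 20 were picked. Arhgef26 was 0.89 ± 0.12 at day 4 and -1.43 ± 0.12 before, and the lysophosphatidic acid receptor Lpar4 was 1.17 ± 0.12 and -0.97 ± 0.12. Irgm1, a GTPase that interferon induces, was 0.95 ± 0.14 at day 4 and -1.13 ± 0.14 before. The AP-1 genes Fosb and Fos, which respond within minutes to stimuli, were -0.04 ± 0.10 and -0.51 ± 0.11 at day 4, against 2.56 ± 0.10 and 1.93 ± 0.11 in undifferentiated cells. Eif4a3l1, Ly96 and Fosb were not called at day 4, with Eif4a3l1 at 0.29 ± 0.23. Ly96 was at 0.64 ± 0.23 at day 4 (limma adjusted p = 0.056), against -1.29 ± 0.23 in undifferentiated cells.

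**Figure D5:**
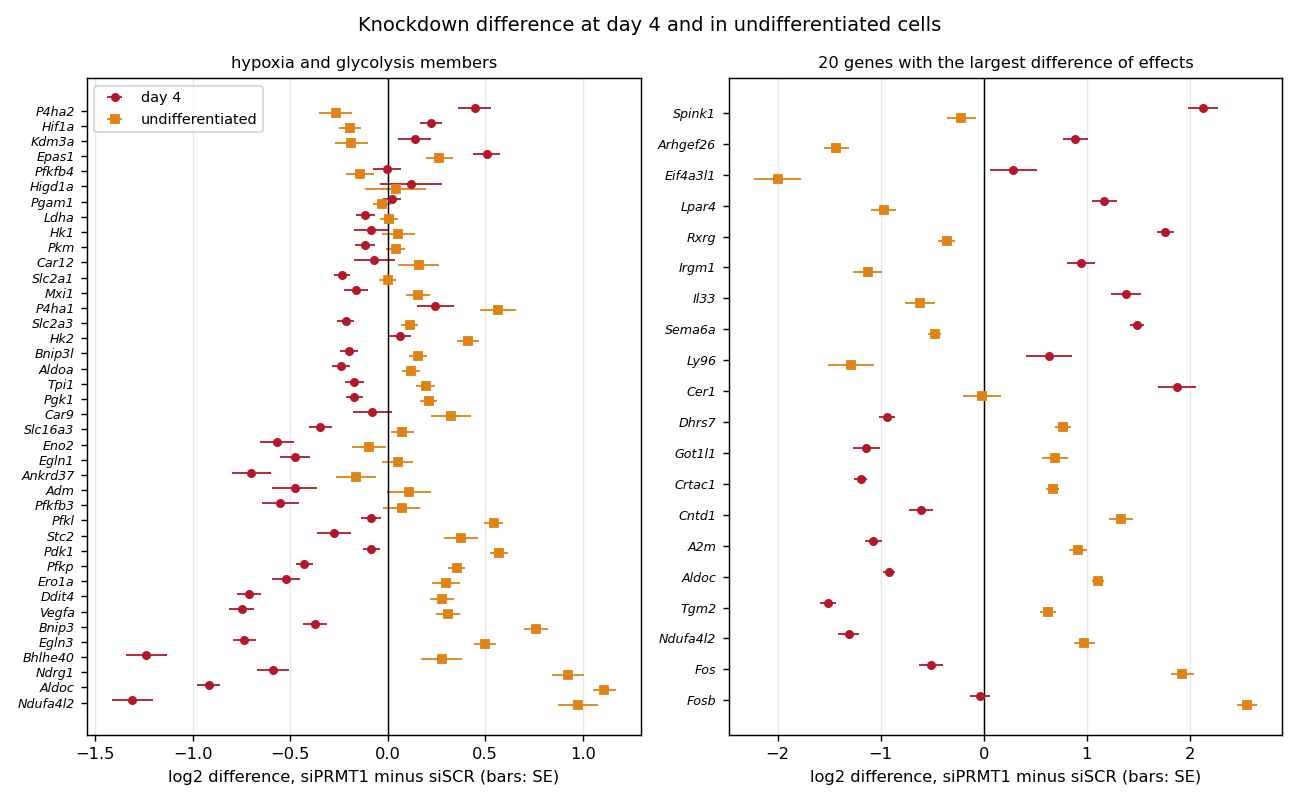
Log2 difference between siPRMT1 and siSCR (x axis, with SE bars) at day 4 (red circles, upper) and in undifferentiated cells (orange squares, lower), for the 40 hypoxia and glycolysis genes (left) and the 20 genes with the largest difference between the stages (right). Ndufa4l2 lies at -1.31 at day 4 and 0.98 in undifferentiated cells, and Rxrg at 1.76 and -0.36.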

How the data were processed

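Total RNA of 24 samples, 3 in each of 8 groups, was measured on an Affymetrix whole-transcript array. The authors deposited log2 values per probe set; per the labels' protocols, cDNA was made and biotinylated with a whole-transcript kit, and no source used here gives the normalization. Of 35556 probe sets, 21789 had 1 gene symbol in the platform annotation, 1621 several and 12146 none (34.2%, not used here). The brightest set per gene left 19938 genes, with no filter on low values. One linear model of 8 group means was fitted in limma 3.58.1 (R 4.3.3; 16 residual degrees of freedom), with Benjamini-Hochberg adjustment over all genes. The test was checked on simulated data. Named genes were Prmt1, the 15 largest rises and falls at day 4 among called genes without overlap, the 10 largest positive and negative stage differences (predicted genes and small RNAs passed over), and list members. The members and lists were chosen with earlier results of these data known. Promoter motifs were searched on both strands of RefSeq windows (GRCm38.p6), the first listed per gene. The labels do not tie equal replicate numbers of different groups, so the main fit used no pairing. Deviations of same-numbered day 4 arrays of the 2 lines correlated at 0.014, -0.017 and -0.056. Those of different-numbered arrays correlated at -0.102 to 0.107. Such correlations cannot settle whether samples were handled in pairs. Alternatives covered a replicate block, the arrays fitted, 3 scalings, dim genes, probe sets averaged, variance settings and each array left out. The number of arrays limits the precision, with a median SE of 0.0932 on the log2 scale.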

Additional observations from a re-analysis of the deposited data

Results flagged for a closer look

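The results in this section stand out because the knockdown difference at day 4 differed from that in undifferentiated cells by the test of the difference itself (limma, adjusted over all genes). Each value is the day 4 log2 difference minus the undifferentiated one. That for Prmt1 was 0.74.

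Among the rises at day 4 the value was 2.35 for Spink1, 2.12 for Rxrg, 2.00 for Il33, 1.97 for Sema6a, 1.89 for Cer1, 1.87 for Cdh9, 1.82 for Cyp26a1, 1.78 for Ugt2b34, 1.78 for Pilra and 1.69 for Nudt11. It was 1.58 for Apoa1, 1.57 for Lef1, 1.40 for Vat1l, 1.31 for Fgf5 and 1.12 for Ttr. Genes with a large positive value outside the leading rises were Arhgef26 (2.32), Eif4a3l1 (2.29), Lpar4 (2.14), Irgm1 (2.07) and Ly96 (1.92).

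Among the falls the value was -2.29 for Ndufa4l2, -2.13 for Tgm2, -1.99 for A2m, -1.86 for Crtac1, -1.83 for Got1l1, -1.65 for Prdm1, -1.51 for Bhlhe40, -1.49 for Fxyd6 and -1.25 for Ccng2. It was -1.22 for Gdap10, -0.85 for Wfdc2, -0.82 for Ier3, -0.61 for Ccdc141, -0.60 for Sohlh2 and -0.55 for Fetub. Genes with a large negative value outside the leading falls were Fosb (-2.60), Fos (-2.44), Aldoc (-2.03), Cntd1 (-1.95) and Dhrs7 (-1.70). The depth of the knockdown also differed between the stages, and its part in these differences was not tested.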

How the results depend on the processing

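The stage-difference results were recomputed under 22 other settings and the day 4 results and list counts under 16, 1 choice at a time. Prmt1, the 30 genes named at day 4 and the 20 named for the stage difference kept their direction and their side of the threshold in every one that applied to them. The number of genes called at day 4 was 3669, and 6106 with array weights; that for the stage difference was 4754, and 7688 with array weights, and the cause was not tested. Leaving out each array in turn gave 2504 to 3327 genes at day 4 (lowest without the siSCR day 4 replicate 2), 4015 to 4553 for the stage difference, and -0.67 to -0.59 for Prmt1. With a replicate block, 3653 and 4746 genes were called, and no named call changed. Without the 6 siSCR arrays of the DMSO and ATRA groups, 5105 and 6188 were called. Of the stage-difference calls 63.0% were positive in the values as deposited, 52.1% after quantile normalization, 48.6% after median centring and 41.6% with arrays scaled to one SD. Of 576 recomputed list counts 36 moved by more than 1.5 times, among them those of the germ cell, streak, sterol, Hox, Notch and interferon lists. Of 260 called list members 0 changed sign under a scaling or without 1 day 4 array in limma, 39 lost the call under at least 1 scaling and 57 without at least 1 of the 6 day 4 arrays. Low-intensity genes are limited by background, for which the table gives no measure.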
